A study of Mus musculus with 3 samples.

Results

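The voltage-gated sodium and calcium channel genes are the 36 genes, listed by symbol, that code for pore-forming sodium channel alpha subunits, sodium beta subunits, calcium channel alpha1 subunits and the calcium channel alpha2delta, beta and gamma subunits. A gene counted as measured through any non-control probe whose RefSeq accession, or whose name in the authors' deposited table, carried one of these symbols. All 36 were on the array, out of 35591 genes or unnamed transcripts in all, with 57 probes on 66 spots. RNA came from the dorsal cortex of untreated mouse pups at postnatal day 4. Each of 3 two-colour arrays held 1 pup labelled Brpf1-deficient, in the Cy5 dye, and 1 pup labelled wild type, in the Cy3 dye. Brpf1 codes for a scaffold protein of histone acetyltransferase complexes. The labels give no allele, Cre driver, strain, sex or litter, and they do not say whether the pairs are littermates. The p-values therefore cover no spread beyond these 3 arrays. The fit also draws each gene's variance towards a value estimated from all genes tested. A p-value is thus not set by a gene's own spread alone.

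Sodium channel alpha subunits form the pore that opens on depolarisation and carries the upstroke of the action potential, and beta subunits are single-pass proteins that tune gating and adhesion. Calcium channel alpha1 subunits form the pore through which depolarisation lets calcium into the cell, where it drives transmitter release, gene expression and burst firing. The alpha2delta and beta subunits carry the high-voltage-activated channels to the membrane, and most brain gamma subunits serve mainly as auxiliary subunits of AMPA-type glutamate receptors. In the cortex just after birth, neurons are replacing fetal sodium channels with the set used by mature axons.

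The sign of every value below is that of Cy5 (labelled Brpf1-deficient) over Cy3 (labelled wild type), on the log2 scale, and it opposes the authors' deposited table. Brpf1 itself, measured by 1 probe, had log2 ratios of 0.63, 0.73 and 0.96 on arrays 1, 2 and 3, which made it 1.71-fold brighter in the library labelled Brpf1-deficient (0.77 ± 0.17, SD, n = 3; limma adjusted p = 0.0044). The authors' deposited table gives Brpf1 a log2 fold change of -0.80, and it lists all 11 channel genes called below with the opposite sign. That table does not state which genotype is divided by which, so its signs alone give no direction by genotype. Whether the probe lies in the deleted part of Brpf1 is not known here. With the same dye on the same label on every array, dye and genotype cannot be told apart. Whether the channel labels were exchanged was not tested, and an exchange would reverse every direction by genotype, so results are stated by dye.

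The cortical excitatory markers Neurod2, Neurod6, Tbr1, Bcl11b and Slc17a7 were well above background in both channels on all 3 arrays. Emx1, another marker on that list, was well above background on 2 arrays in Cy5 and on 3 in Cy3. Between 57.9% and 58.2% of spots were well above background in Cy5 and between 59.9% and 61.0% in Cy3, and no spot was saturated. Pairs of arrays correlated at 0.57 to 0.70 in their log2 ratios across genes, which are not independent replicates. Array 1 stood apart in size: the median absolute log2 ratio over all genes was 0.22 there, against 0.13 on each of the other arrays.

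Of the 36 channel genes, 33 were measured and tested, having cleared the scanner's background limit in Cy5 or Cy3 on 2 arrays or more. Of these, 32 were above background in both channels on all 3 arrays. The probes of Scn7a, whose product senses sodium rather than voltage, Cacna1f, the L-type channel of photoreceptors, and Cacna2d4, a retinal alpha2delta subunit, did not rise well above background with either dye on any of the 3 arrays. Of the photoreceptor markers, Crx, Rcvrn and Pde6b were too dim to be tested, and Nrl was tested and not called.

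In the limma fit over all 23305 genes tested, 11 of the 33 channel genes were called at an adjusted p of at most 0.05, which is 33.3%, against 17.1% of all genes. Brighter in Cy5 were 5 genes (15.2%, against 7.96% of all genes), namely Scn4b, Cacna1g, Cacna1s, Cacng5 and Cacng3. Brighter in Cy3 were 6 genes (18.2%, against 9.19% of all genes), namely Scn1a, Scn2a1, Scn3a, Scn11a, Scn3b and Cacna2d1. The remaining 22 were not called. Without array 1, 2 of the 33 were called brighter in Cy5 and 5 in Cy3 (13.5% of all genes called), without array 2 these were 3 and 6 (16.3%), and without array 3 they were 2 and 5 (8.26%). The median log2 ratio of the 33 was 0.00, against -0.01 over all genes, and their median absolute log2 ratio was 0.18, against 0.14. No channel gene had a mean difference of 2-fold. In bulk tissue, fewer cells of a type and less RNA per cell cannot be told apart. Of the 26 measured channel genes listed in the authors' deposited table, 0 had an adjusted p of at most 0.05 there, and the 11 called here had 0.241 to 0.291 in that table.

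**Figure D1:**
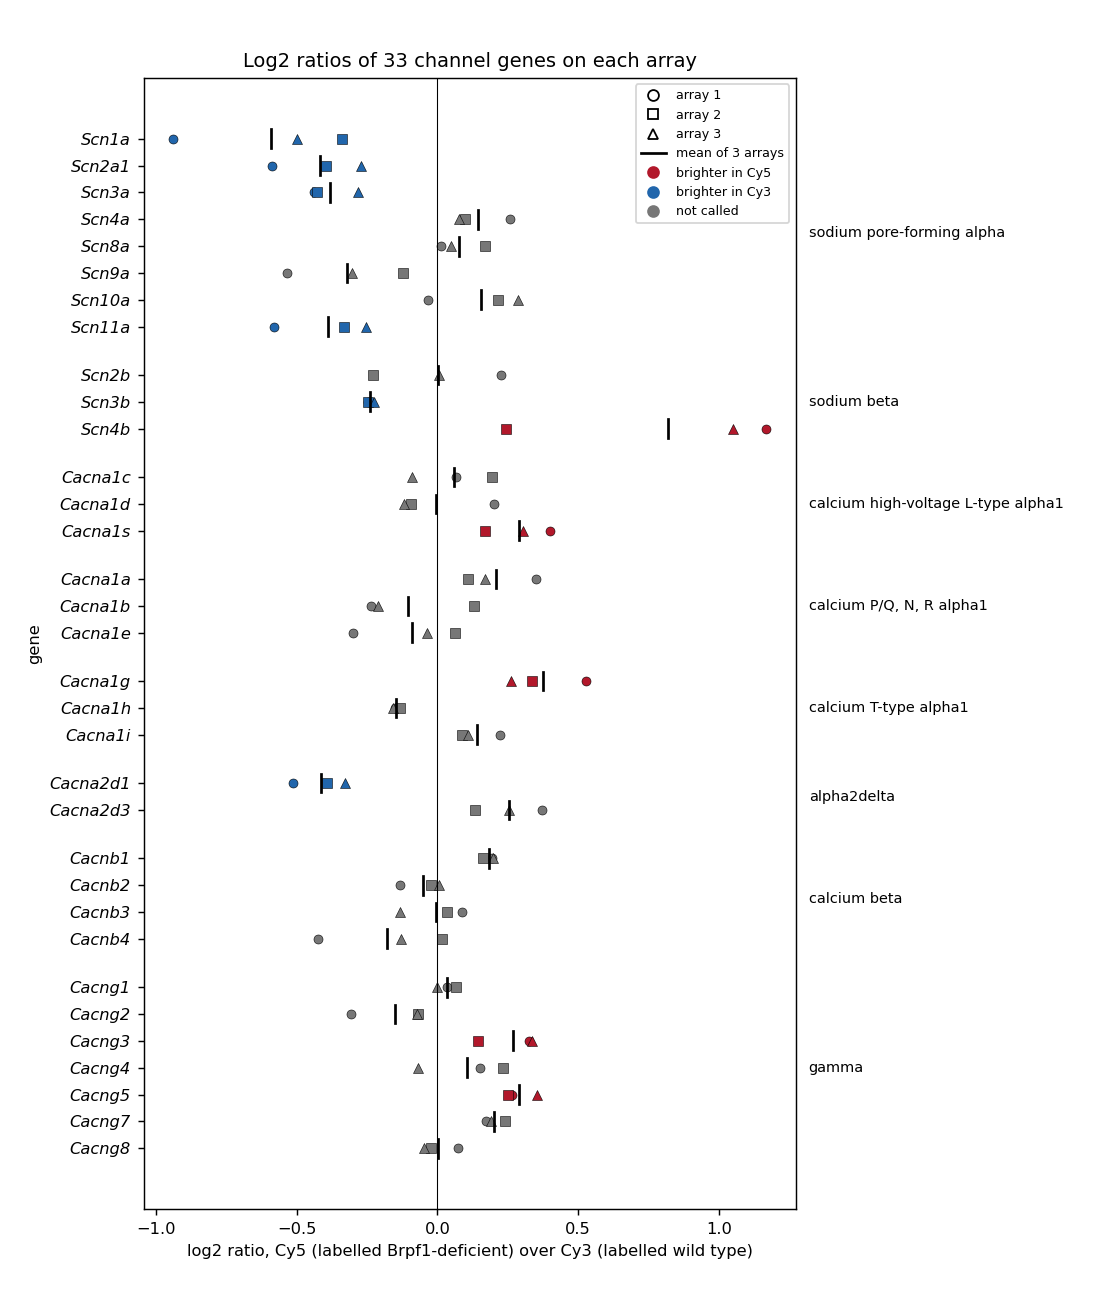
The x axis gives the log2 ratio of Cy5 over Cy3 for each of 33 channel genes, with 1 symbol per array and a bar at the mean of the 3 arrays; genes run down the page by role. Blue genes were called brighter in Cy3 and red genes brighter in Cy5; 4 of the 8 sodium alpha subunits are blue and none is red.

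Among the alpha subunits of the sodium channel, of 8 tested, 4 were called brighter in Cy3 and 0 in Cy5 by limma. Over all genes these shares were 9.19% and 7.96%. The median log2 ratio of the 8 was -0.35. At an unadjusted p of at most 0.05, 5 of the 8 lay below 0, against 19.5% of all genes, and 0 lay above, against 17.3%. Scn1a, Scn2a1 and Scn3a are brain subunits whose genes lie in 1 cluster on chromosome 2, and Scn11a is a subunit known from pain-sensing neurons.

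Scn1a codes for the alpha subunit that carries much of the sodium current of fast-spiking interneurons, and loss of 1 human copy causes a severe infant epilepsy. Its log2 intensity on arrays 1, 2 and 3 was 11.80, 12.18 and 12.16 in Cy5, against 12.74, 12.52 and 12.66 in Cy3. Every Cy5 value lay below every Cy3 value, and the gap was widest on array 1. Here and below, such separation or overlap over arrays is description only. The called genes were picked on these same signals, and intensities were not scaled between arrays. The share of all genes separated in this way was not counted. The Scn1a log2 ratios of -0.94, -0.34 and -0.50 gave a mean of -0.59 ± 0.31 (SD, n = 3; limma adjusted p = 0.021), a signal 1.51-fold higher in Cy3. A second Scn1a probe averaged -0.22 ± 0.37 and was not called (limma adjusted p = 0.247), nor was the mean over both probes, -0.41 (limma adjusted p = 0.062). Of 7 interneuron markers, Sst (0.41 ± 0.09) and Slc32a1 (0.33 ± 0.21) were called brighter in Cy5, and the transcription factor genes Dlx1 (-0.56 ± 0.14) and Lhx6 (-0.39 ± 0.21) brighter in Cy3. Their summed signal ran between 119000 and 140000 in Cy5 and between 117000 and 131000 in Cy3. Of 6 thalamic markers, Prkcd (0.53 ± 0.08) was called brighter in Cy5, and Slc17a6 (-0.83 ± 0.12) and Ntng1 (-0.51 ± 0.07) brighter in Cy3. Tcf7l2 (-0.21), Gbx2 (0.20) and Lhx9 (-0.09) were not called. The summed signal of the 6 ran between 23600 and 28100 in Cy5 and between 35100 and 46400 in Cy3. Slc17a6 weighs most in these sums, at a mean log2 intensity of 14.33, against 12.69 for Ntng1, the next brightest. All of these markers were above background in both channels on all arrays, and their part in the Scn1a result was not tested. Over all genes, 7.96% were called brighter in Cy5 and 9.19% in Cy3.

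Scn2a1, now named Scn2a, codes for the main alpha subunit of young excitatory axons. Its log2 intensity was 14.96, 15.01 and 15.00 in Cy5, against 15.55, 15.41 and 15.27 in Cy3. The Cy5 values were nearly level over the arrays and all lay below the Cy3 values. The mean log2 ratio was -0.42 ± 0.16 (limma adjusted p = 0.021), or 1.34-fold higher in Cy3. Its other probes averaged -0.30 ± 0.21 and -0.05 ± 0.26 and were not called, and the mean over all its probes was -0.26 (limma adjusted p = 0.089), so the call rests on the brightest probe.

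Scn3a codes for the alpha subunit that predominates before and around birth. Its log2 intensity was 13.77, 13.57 and 13.70 in Cy5, against 14.21, 14.00 and 13.98 in Cy3, and the channels did not overlap. The mean log2 ratio was -0.38 ± 0.09 (limma adjusted p = 0.018), or 1.30-fold higher in Cy3. Scn3a had 5 probes, all with means below 0, and 4 of them were called when probes were tested singly. The 4 called probes averaged -0.38, -0.36, -0.54 and -0.46, and the fifth averaged -0.20 ± 0.31. Over the whole array, 16.9% of probes were called singly, and over the channel genes 12 of 51 probes were.

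Scn11a had log2 intensities of 8.76, 8.67 and 8.76 in Cy5, against 9.34, 9.0 and 9.02 in Cy3, with no overlap between channels. The mean log2 ratio was -0.39 ± 0.17 (limma adjusted p = 0.027), or 1.31-fold higher in Cy3. Its neighbour Scn10a, another subunit of sensory neurons, averaged 0.16 ± 0.17 and was above background on 2 arrays in Cy5 and 1 in Cy3. Scn9a, known for its part in pain sensing, had ratios of -0.53, -0.12 and -0.30 and averaged -0.32 ± 0.21, just past the threshold (limma adjusted p = 0.053). Markers of peripheral sensory neurons were also tested. Of these, 3 of 6 were called brighter in Cy3 and none in Cy5, against 9.19% and 7.96% of all genes. Pou4f1, a transcription factor of these neurons, averaged -1.26 ± 0.28 and was above background on 1 array in Cy5 and 3 in Cy3, so it entered the test through Cy3 alone and its size rests on Cy5 signals near background. The heat receptor gene Trpv1 averaged -0.37 ± 0.10 and the intermediate filament gene Prph -0.29 ± 0.05. Avil was not well above background, and the summed signal of the tested markers ran between 2010 and 3150 in Cy5 and between 2420 and 2960 in Cy3. Their part in the Scn11a result was not tested.

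Of the other alpha subunits, Scn8a, which takes over at the mature axon initial segment, averaged 0.08 ± 0.08, with a 95% interval of -0.09 to 0.24. Its other probes averaged 0.00 ± 0.10 and 0.27 ± 0.22, and none was called. Scn4a, the skeletal muscle subunit, averaged 0.14 ± 0.10 and was not called.

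On chromosome 2 the order is Scn3a, Scn2a1, Scn1a, Scn9a and Scn7a in the RefSeq annotation of GRCm38.p6, with 3 other protein-coding genes between the first and the last. Those 3 genes, Csrnp3, Galnt3 and Ttc21b, averaged between -0.13 and 0.21, and 0 of the 3 were called. By their brightest probes, the 4 measured sodium channel genes of the cluster were all below 0 on all 3 arrays. Some of their other probes were not. A Scn2a1 probe was at 0.11 on array 2 and 0.09 on array 3. A Scn3a probe was at 0.14 on array 2, and the second Scn1a probe was at 0.01 on array 3.

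The promoters of Scn1a and Scn2a1 are shown because these genes of 1 cluster were both brighter in Cy3, beside those of Cacna2d1 and Scn4b, the calcium channel auxiliary gene brighter in Cy3 and the called gene with the largest difference. Each window runs from 250 bases before to 50 after a RefSeq transcription start in GRCm38.p6, read 5′ to 3′ on the gene's strand. They are Scn1a at chr2:66440788-66441087 (minus strand), Scn2a1 at chr2:65668436-65668735 (plus strand, the downstream start of its 2 listed), Cacna2d1 at chr5:15934441-15934740 (plus strand) and Scn4b at chr9:45138374-45138673 (plus strand). Capitals mark matches, on either strand, to the box named CCAAT after its letters, to the TATA box with letters TATAAA and to the GC box with letters GGGCGG. The cAMP response element core, an E-box and the left portion of the RE1 site bound by the product of Rest were searched as well, and none of their letters occurred in these windows.
Scn1a promoter: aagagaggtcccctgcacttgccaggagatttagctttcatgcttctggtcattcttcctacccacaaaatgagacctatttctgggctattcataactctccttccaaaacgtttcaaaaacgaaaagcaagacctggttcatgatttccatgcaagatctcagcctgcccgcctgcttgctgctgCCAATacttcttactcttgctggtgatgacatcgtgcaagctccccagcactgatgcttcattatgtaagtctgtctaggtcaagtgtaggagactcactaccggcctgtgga
Scn2a1 promoter: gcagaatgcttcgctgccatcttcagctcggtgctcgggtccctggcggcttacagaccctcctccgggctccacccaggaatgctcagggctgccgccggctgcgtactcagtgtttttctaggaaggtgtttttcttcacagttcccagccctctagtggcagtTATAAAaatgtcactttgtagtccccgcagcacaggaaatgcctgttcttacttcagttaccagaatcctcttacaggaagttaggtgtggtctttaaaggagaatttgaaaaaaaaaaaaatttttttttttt
Cacna2d1 promoter: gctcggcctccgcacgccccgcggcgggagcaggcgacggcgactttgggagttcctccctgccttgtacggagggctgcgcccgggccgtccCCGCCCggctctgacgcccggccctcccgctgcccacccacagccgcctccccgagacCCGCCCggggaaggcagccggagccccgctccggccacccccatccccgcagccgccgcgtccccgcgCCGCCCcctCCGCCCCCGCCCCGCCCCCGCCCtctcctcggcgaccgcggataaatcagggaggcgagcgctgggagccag
Scn4b promoter: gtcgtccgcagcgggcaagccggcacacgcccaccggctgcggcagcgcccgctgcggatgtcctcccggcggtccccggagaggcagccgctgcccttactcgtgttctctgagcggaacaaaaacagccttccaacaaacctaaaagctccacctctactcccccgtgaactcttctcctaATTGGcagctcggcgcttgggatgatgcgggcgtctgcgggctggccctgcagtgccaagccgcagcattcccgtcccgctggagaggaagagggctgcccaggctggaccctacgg
The Scn1a window held 5 CpG dinucleotides and 47.3% G and C, and the Scn2a1 window 9 CpG and 47.7%. The Cacna2d1 window held 42 CpG, 80.0% G and C and 7 GC boxes, some of them directly joined, and the Scn4b window 26 CpG and 66.3%. Over all 32851 RefSeq promoter windows the medians were 7 CpG and 52.7%, so the sodium alpha windows were ordinary in CpG number and the other 2 were rich in it. A CCAAT box occurred in 37.4% of all windows, a GC box in 35.7% and a TATA box in 13.6%. The cAMP element core, spelled TGACGTCA, occurred in 1.8%, the E-box, spelled CACGTG, in 7.2%, and the RE1 portion, spelled TTCAGCACC, in 0.4%. A match describes letters only. In all, 28 channel genes matched 39 windows, and a GC box was present in 15 of the 39 (38.5%).

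**Figure D2:**
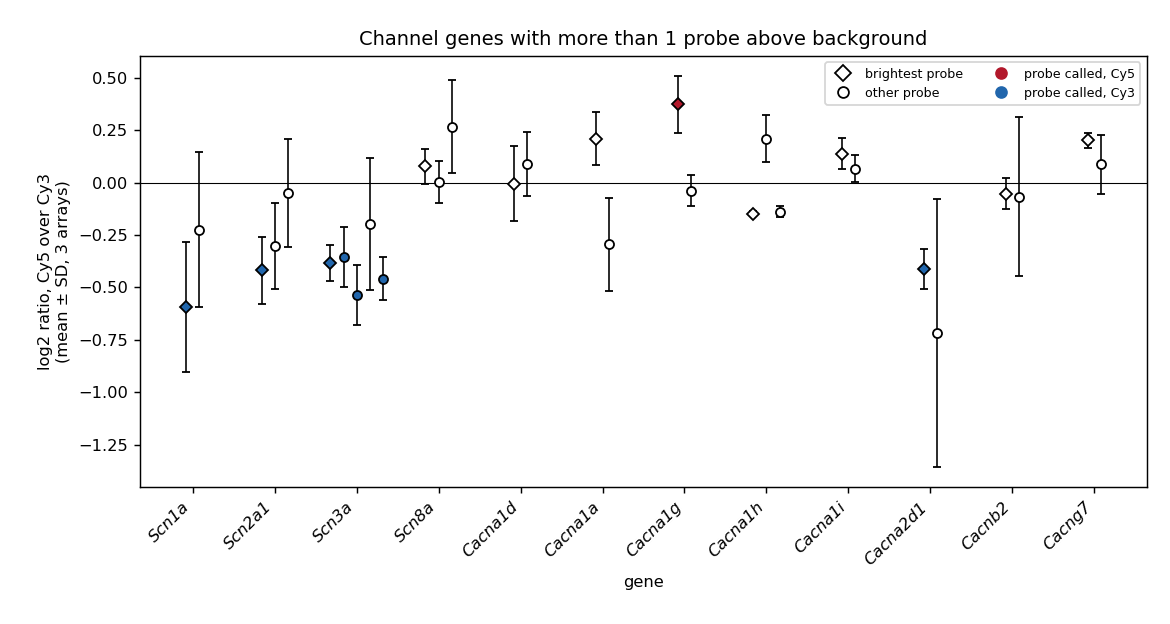
Each point is 1 probe, with its mean log2 ratio of Cy5 over Cy3 and the SD over 3 arrays on the y axis, for the 12 channel genes with several probes above background; diamonds are the brightest probe of a gene. The 5 probes of Scn3a all lie below 0, while the other probes of Scn1a, Scn2a1 and Cacna1g are unfilled, meaning not called.

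The 3 sodium beta subunit genes did not share a direction: Scn4b was brighter in Cy5, Scn3b was brighter in Cy3, and Scn2b was not called.

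Scn4b codes for the beta subunit known to block the open pore and so to permit resurgent sodium current, and it is abundant in striatal neurons. Its log2 intensity was 8.85, 8.56 and 8.75 in Cy5, against 7.68, 8.31 and 7.70 in Cy3. All Cy5 values lay above all Cy3 values, but the pair on array 2 was much closer than the others. Its log2 ratios were 1.17, 0.24 and 1.05, with a mean of 0.82 ± 0.50 (limma adjusted p = 0.023), or 1.77-fold higher in Cy5, the largest difference among the channel genes. Without array 1 it averaged 0.65 and was no longer called (limma adjusted p = 0.066). The 8 striatal markers tested were lowest on array 2 as well. Their mean log2 ratio was 1.13, 0.18 and 0.74 on arrays 1, 2 and 3. Of the 8, 5 were called brighter in Cy5 and none in Cy3, against 7.96% and 9.19% of all genes. Penk, an opioid peptide gene, averaged 1.08 ± 0.56, Adora2a, an adenosine receptor gene, 0.71 ± 0.41, Tac1, the substance P gene, 0.83 ± 0.54, Drd2, a dopamine receptor gene, 0.59 ± 0.38, and Ppp1r1b, a dopamine-regulated phosphatase inhibitor gene, 1.19 ± 0.90. The summed signal of the 8 markers ran between 74200 and 89600 in Cy5 and between 38300 and 63100 in Cy3, and all 8 were above background in both channels on all arrays. Their part in the Scn4b result was not tested.

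**Figure D3:**
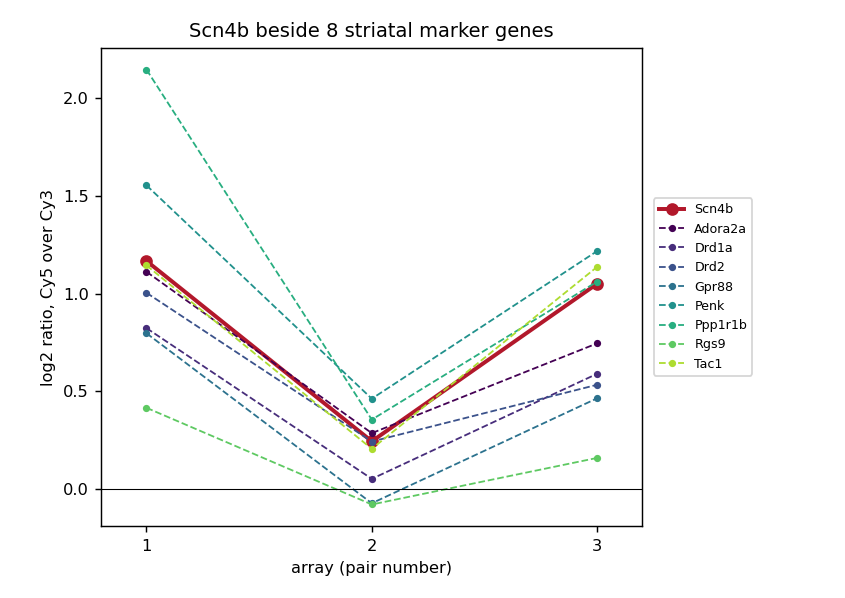
The log2 ratio of Cy5 over Cy3 is plotted against array number for Scn4b (thick line) and 8 striatal marker genes (dashed). All 9 genes had their lowest ratio on array 2, where Scn4b was at 0.24, against 1.17 on array 1 and 1.05 on array 3.

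Scn3b, a neuronal beta subunit of the developing brain, had log2 intensities of 13.31, 13.19 and 13.26 in Cy5, against 13.56, 13.44 and 13.49 in Cy3. The channels did not overlap and the ratios, -0.25, -0.25 and -0.22, were nearly equal on the 3 arrays. The mean was -0.24 ± 0.01 (limma adjusted p = 0.049), or 1.18-fold higher in Cy3. The call lay at the threshold and was lost when any 1 array was left out, with adjusted p of 0.059 without array 1, 0.180 without array 2 and 0.181 without array 3. Scn2b, which lies next to Scn4b on chromosome 9 with no gene between them, averaged 0.00 ± 0.23 and had ratios of both signs.

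Among the partners of sodium channels and proteins of the axon initial segment, 1 of 21 tested genes was called brighter in Cy5 and 3 brighter in Cy3. Over all genes these shares were 7.96% and 9.19%, so the number called among the 21 was close to that of all genes. The median of the 21 was -0.04. Fgf13, an intracellular fibroblast growth factor that binds sodium channels, averaged -0.43 ± 0.23 (limma adjusted p = 0.030). The ankyrin gene Ank2 averaged -0.33 ± 0.02 and Tnr, which codes for the matrix protein tenascin-R, -0.29 ± 0.10. The spectrin gene Sptbn1 averaged 0.33 ± 0.15. Ank3, whose product anchors sodium channels at the axon initial segment, averaged -0.20 ± 0.18 and was not called. Rest, a repressor of neuronal genes that include sodium channels, averaged 0.06 ± 0.14 and was not called.

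Of the 9 pore-forming calcium channel alpha1 genes tested, 2 were called, a share near the 17.1% of all genes. Both were brighter in Cy5, namely the T-type gene Cacna1g and the skeletal muscle L-type gene Cacna1s.

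Cacna1g codes for a low-voltage-activated channel that supports burst firing. Its log2 intensity was 12.26, 11.86 and 11.85 in Cy5, against 11.73, 11.52 and 11.59 in Cy3. All Cy5 values lay above all Cy3 values, by 0.53, 0.34 and 0.26 on arrays 1, 2 and 3. The mean was 0.38 ± 0.14 (limma adjusted p = 0.024), or 1.30-fold higher in Cy5. Its second probe averaged -0.04 ± 0.07, with ratios of -0.08, -0.08 and 0.05, and the mean over both probes was 0.17 and not called (limma adjusted p = 0.110). The other T-type genes, Cacna1h and Cacna1i, averaged -0.15 ± 0.01 and 0.14 ± 0.07 and were not called. Other probes of Cacna1h averaged 0.21 ± 0.11 and -0.14 ± 0.03, the last of these below the background limit in Cy5 on every array.

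Cacna1s codes for the voltage sensor of skeletal muscle contraction. Its log2 intensity was 8.20, 7.72 and 7.85 in Cy5, against 7.80, 7.56 and 7.55 in Cy3. Cy5 was the brighter channel on each array, although the channels overlapped over arrays. The mean log2 ratio was 0.29 ± 0.12 (limma adjusted p = 0.042), or 1.22-fold higher in Cy5, and its second probe was not well above background. The call was lost without array 1 (limma adjusted p = 0.072) and without array 3 (0.146). Among skeletal muscle markers, 4 of 8 were tested and 2 were called brighter in Cy5, against 7.96% of all genes. These were the myosin genes Myh3 (0.66 ± 0.26) and Myh8 (0.33 ± 0.11). The other tested markers were not called, with Acta1 at 0.19 ± 0.03 and Tnnt3 below 0 on every array at -0.15 ± 0.13. Ckm, Myog, Myod1 and Des were not tested, and the summed signal of the tested markers ran between 3970 and 5160 in Cy5 and between 3160 and 4190 in Cy3. Their part in the Cacna1s result was not tested.

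The L-type genes that brain neurons use were not called: Cacna1c averaged 0.06 ± 0.14 and Cacna1d 0.00 ± 0.18. The genes of presynaptic P/Q-type, N-type and R-type channels were also not called, at 0.21 ± 0.13 for Cacna1a, -0.11 ± 0.20 for Cacna1b and -0.09 ± 0.19 for Cacna1e. A second Cacna1a probe averaged -0.29 ± 0.22, opposite in sign to the first, and neither was called.

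Of the alpha2delta subunits, Cacna2d1 was brighter in Cy3. It codes for the subunit bound by the drug gabapentin. Its log2 intensity was 13.39, 13.37 and 13.40 in Cy5, against 13.91, 13.76 and 13.73 in Cy3. The Cy5 values were nearly level and all lay below the Cy3 values. The log2 ratios of -0.51, -0.39 and -0.33 averaged -0.41 ± 0.09 (limma adjusted p = 0.016), or 1.33-fold higher in Cy3. The second probe averaged -0.72 ± 0.64, with ratios of -1.38, -0.66 and -0.10, and was not called (limma adjusted p = 0.051). Cacna2d3 lay above 0 without a call, at 0.25 ± 0.12 (limma adjusted p = 0.058).

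None of the 4 calcium beta subunit genes was called by limma, against 17.1% of all genes. Of the 4, 1, Cacnb1, had an unadjusted limma p of at most 0.05, against 36.9% of all genes. Cacnb1 averaged 0.18 ± 0.02 (limma adjusted p = 0.094), Cacnb2 -0.05 ± 0.07, Cacnb3 0.00 ± 0.11 and Cacnb4 -0.18 ± 0.22.

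The 7 gamma subunit genes had a median of 0.10. Of the 7, Cacng5 and Cacng3 were called, both brighter in Cy5, against 7.96% of all genes. Both products assist AMPA receptors. Cacng5 had log2 intensities of 10.76, 10.34 and 10.35 in Cy5, against 10.49, 10.09 and 9.99 in Cy3. Cy5 was brighter on each array, while the channels overlapped over arrays. The mean log2 ratio was 0.29 ± 0.06 (limma adjusted p = 0.033), or 1.22-fold higher in Cy5, and the call was lost without array 2 (0.073) or array 3 (0.163). Cacng3 had log2 intensities of 11.15, 10.59 and 10.71 in Cy5, against 10.82, 10.45 and 10.37 in Cy3, again brighter in Cy5 within each array and overlapping over arrays. Its mean of 0.27 ± 0.11 (limma adjusted p = 0.049) lost its call without array 1 (0.083), array 2 (0.053) or array 3 (0.211).

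Cacng2, whose loss causes the stargazer phenotype in mice, averaged -0.15 ± 0.14, Cacng4 0.10 ± 0.16, Cacng7 0.20 ± 0.03, Cacng8 0.00 ± 0.06 and the skeletal muscle subunit Cacng1 0.03 ± 0.03, and none of these was called. Cacng1, Cacng4 and Cacng5 lie in this order on chromosome 11 with no gene between them, and of the 3 only Cacng5 was called.

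Among the AMPA receptor genes and other proteins that work with the gamma subunits, the median was -0.10. Of these, 3 of 12 were called, all brighter in Cy3, against 9.19% of all genes. The called ones are the receptor subunit genes Gria2 (-0.69 ± 0.20, limma adjusted p = 0.0076), Gria1 (-0.34 ± 0.07) and Gria3 (-0.30 ± 0.13). Of 18 tested partners of calcium channels, Stac2, an adaptor of L-type channels, was called brighter in Cy5 (0.93 ± 0.38, limma adjusted p = 0.0095), and Snap25, a protein of vesicle fusion, was called brighter in Cy3 (-0.44 ± 0.24). No other of these 18 was called, against 17.1% of all genes called in either direction. The median of these partners was 0.03.

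Of 18 genes of the calcium response, 3 were called brighter in Cy5 and 1 brighter in Cy3, against 7.96% and 9.19% of all genes. The median of the 18 was 0.04. Among the called ones, Calm2, a calmodulin gene, averaged 1.31 ± 0.17 and the calcium sensor gene Hpca 0.71 ± 0.07, while the kinase gene Camk4 averaged -0.34 ± 0.20. Calm3, another calmodulin gene, averaged -0.08 ± 0.29 and was not called. Beside these stands the behaviour of very bright probes: the 701 genes with a mean log2 intensity above 16 had a median log2 ratio of 0.22, and 81.2% of them were above 0. Calm2 lay at 17.29 on that scale, and the highest channel gene, Scn2a1, at 15.20. With all genes split into 10 equal bins by intensity, between 10.9% and 23.2% of a bin were called. The bin from 13.27 to 14.45 had the lowest median log2 ratio, -0.05, and held 5 channel genes, Scn3a, Scn3b and Cacna2d1 among them. With the medians of 20 intensity bins set to 0, Scn3b lost its call (-0.21, limma adjusted p = 0.066). Scn3a (-0.34) and Cacna2d1 (-0.37) kept theirs, and Cacna2d3, from the same bin, was called brighter in Cy5 (0.28).

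**Figure D4:**
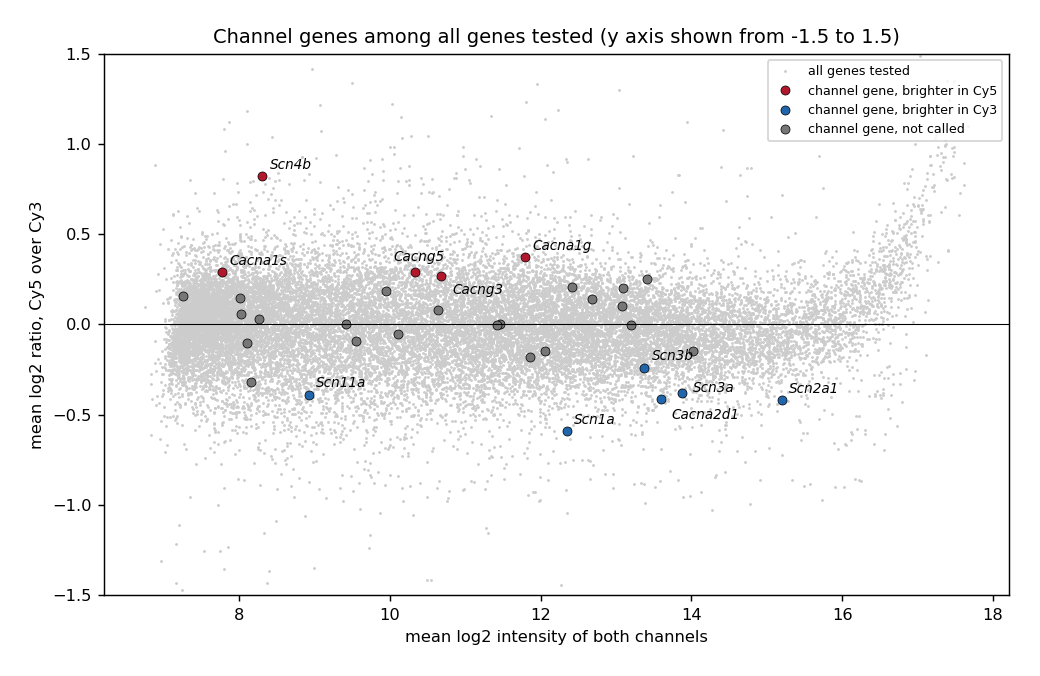
The mean log2 ratio of Cy5 over Cy3 is plotted against the mean log2 intensity of both channels for all 23305 genes tested (grey) and the 33 channel genes (large points, called ones named). All channel genes lie left of an intensity of 16, above which most genes of the array lie above 0.

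The sizes of the called differences were close to those elsewhere on the array: the median absolute log2 ratio of the 11 called channel genes was 0.38, as it was over all called genes. Array 1 had the largest ratio in 8 of the 11, array 2 in 1 and array 3 in 2. All 3 arrays had the same sign in 21 of the 33 channel genes, and in 59.5% of all genes. The unadjusted limma p was at most 0.05 in 16 of the 33, against 36.9% of all genes.

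The calls depended on the processing of the signals. With the processed signals of the scanner software, 0 channel genes were called brighter in Cy5 and 1, Scn11a, brighter in Cy3, while 4.77% of all genes were called. Those signals differ in background handling as well as in dye scaling, and Scn1a and Scn2a1 lost their calls there at means of -0.59 and -0.41, close to the reported ones. With each array's log ratios only centred on their median, 9 were called brighter in Cy5 and 0 in Cy3, and 83.2% of all called genes were brighter in Cy5, against 46.4% after loess. That centring placed the median of all genes at 0.09, Scn2a1 at -0.05, Scn3a at -0.18, Cacna2d1 at -0.24 and Scn3b at -0.08. Scn1a (-0.50, limma adjusted p = 0.057) and Scn11a (-0.34, limma adjusted p = 0.051) lost their calls with a smaller change in size. The processed signals gave Scn4b a mean of 1.25 and Cacna1s a mean of 0.55. In all 16 alternatives tried, the mean of each of the 11 called genes kept its sign.

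**Figure D5:**
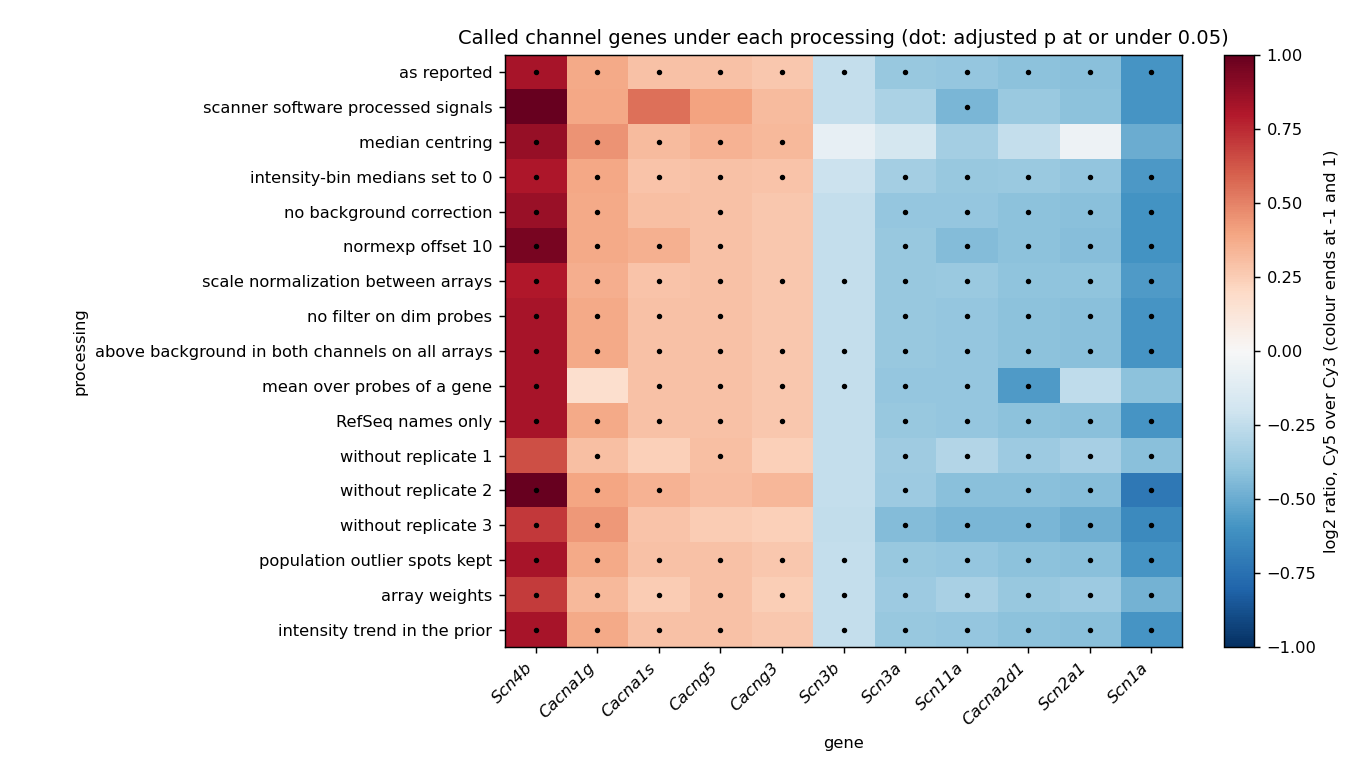
Rows are the processing used for the reported values and 16 alternatives, columns are the 11 called channel genes, colour is the mean log2 ratio of Cy5 over Cy3, and a dot marks an adjusted p of at most 0.05. The signs stay the same in every row; the dots thin out with the scanner software's processed signals, where Scn11a alone keeps one.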

How the data were processed

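The deposited scanner files hold median spot and background intensity for both dyes, from Agilent Feature Extraction 10.7.3.1 with an mm9 grid per the file headers, with a processed intensity and a log10 ratio of red over green. The authors' deposited table gives log2 fold changes, scores and p-values, made with limma per the submitters' processing notes. It stops at an unadjusted p of 0.458.

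Here, limma 3.58.1 in R 4.3.3 applied normexp (offset 50, which shrinks ratios of dim probes) and within-array loess, leaving out control and outlier spots. Probes well above background in 1 channel on 2 of the 3 arrays were kept, with the probe of highest mean intensity per gene. An intercept was fitted with lmFit and eBayes, and p-values were adjusted by Benjamini-Hochberg at 0.05 over all genes. The eBayes step draws each gene's variance towards a value estimated from all genes. It narrows the standard error of genes with a wide spread and widens that of genes with a small one. The standard error was 0.17 for Scn4b (SD 0.50) and 0.07 for Scn3b (SD 0.01). The deposited files hold median and not mean spot signals, so medians were used. The fit was tested on simulated data.

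Of 55681 probes, RefSeq accessions (GRCm38.p6) named 27656, and a further 4082 took names from the authors' deposited list. Of the 57 channel probes, 51 were named by RefSeq and 6 by that table, whose naming depends partly on its p-values. Channel genes, partner lists and markers were chosen with earlier results of these data known. All channel genes are named, called ones with all their probes, and partners by count with up to 4 called genes each. The small number of arrays limits the precision, and intervals are 95% intervals from limma. Promoter windows are RefSeq's. Some genes of the partner and marker lists are not reported here by name.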

Additional observations from a re-analysis of the deposited data

How the results depend on the processing

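Over 16 alternatives, 1 of them (population outlier spots kept) chosen after seeing the data, none of the 11 called genes changed sign. Genes called over the array numbered 3996, against 1112 on processed signals from the scanner software, 5377 with median centring, 5847 with scale normalization between arrays, 5953 with empirical array weights and between 1924 and 3799 with 1 array left out, the lowest without array 3. Channel genes called brighter in Cy5 numbered 5, against 0 with processed signals, 9 with median centring, 3 with no background correction and 8 with array weights (0.385, 1.63 and 1.59 for arrays 1 to 3). Leaving out 1 array gave 2 or 3. Those brighter in Cy3 numbered 6, against 1 with processed signals and 0 with median centring, and 5 or 6 with 1 array left out. The median of the measured channel genes lay between 0.01 and 0.05 with 1 array left out. Scn11a kept its call in 15 of 16 alternatives, Scn3a, Cacna2d1, Scn4b and Cacna1g in 14, Scn1a and Scn2a1 in 13, Cacng5 in 13, Cacna1s in 12, Cacng3 in 8 and Scn3b in 6. Where a call was lost the cause was not tested, except that leaving out an array leaves fewer samples. No further paired analysis was run, because each log2 ratio is already taken within a numbered pair and the fit is therefore a paired one.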

Other observations

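Emx1, a marker of dorsal cortical neurons, had log2 ratios of 0.65, -2.72 and -2.65 on arrays 1, 2 and 3. Its mean of -1.58 ± 1.92 (SD, n = 3) was not called (limma adjusted p = 0.103), and array 1 had the sign opposite to the other arrays. By the brightest probe of each, none of the 11 called channel genes changed sign between arrays. These genes were called on the same ratios, and that choice itself favours a shared sign.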
